A study of Mus musculus with 11 samples.

Results

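Granulosa cells taken from mouse ovaries 48 h after treatment with equine chorionic gonadotropin (eCG) were examined for how much RNA each gene gave and how much H3K4me3 it carried at that single time. Members were chosen by label: the 3 RNA libraries and the 2 H3K4me3 libraries taken 48 h after eCG, 5 of the 11 samples of the series, joined gene by gene through the Entrez gene ID. All mice were C57BL/6, no other allele is labelled, the tissue is ovary, and the RNA libraries alone carry an age, postnatal day 21. The labels name the treatment both as eCG and as follicle stimulating hormone (FSH), and for the RNA libraries they say that granulosa cells came out of the ovary by follicular puncture, which does not separate them from every other ovarian cell. The series calls the libraries of a group biological replicates. The RNA and H3K4me3 libraries are separate samples, and nothing in the labels ties a library of either assay to a library of the other. No 0 h library and no input library was used, so every statement below is about differences between genes within eCG-primed cells and none is about a response to eCG.

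Granulosa cells surround the oocyte, answer FSH through cyclic AMP, proliferate, and convert androgens made by theca cells into estradiol. eCG acts on the FSH receptor in mice and is given to start the growth of a cohort of follicles, and any action of it on the luteinizing hormone receptor cannot be told apart here. H3K4me3, trimethylation of lysine 4 of histone H3, is laid down by the SET1 and MLL enzyme complexes around transcription start sites, above all where CG dinucleotides are dense and unmethylated. It is common at genes in use and also occurs at silent developmental genes, where it can lie beside repressive marks. RNA level and H3K4me3 are therefore related but not interchangeable readouts of a gene.

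The stretches of DNA below lie just before the start of 8 genes that carry the main contrasts described here. They are the 150 bases before the start, read 5′ to 3′ along the gene, from the RefSeq promoter table of GRCm38.p6, and capitals mark CG dinucleotides. Hsd3b1 combines very high RNA with few CGs, Serpine2 and Fosl2 combine high RNA with many, and Gja1 and Lhcgr lie between them. Cyp19a1, shown at each of its 3 starts, has high RNA and H3K4me3 at the level of silent genes. Col3a1 has high RNA with little H3K4me3. Atoh1 has no RNA but is marked.
Hsd3b1 (Entrez 15492), chr3:98859795-98859944, minus strand: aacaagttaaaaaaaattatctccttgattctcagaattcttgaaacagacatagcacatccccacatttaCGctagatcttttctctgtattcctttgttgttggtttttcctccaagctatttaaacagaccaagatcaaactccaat
Gja1 (Entrez 14609), chr10:56377150-56377299, plus strand: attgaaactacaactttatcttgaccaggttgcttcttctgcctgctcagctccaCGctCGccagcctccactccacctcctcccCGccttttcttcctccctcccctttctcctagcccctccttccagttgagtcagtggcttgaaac
Lhcgr (Entrez 16867), chr17:88792015-88792164, minus strand: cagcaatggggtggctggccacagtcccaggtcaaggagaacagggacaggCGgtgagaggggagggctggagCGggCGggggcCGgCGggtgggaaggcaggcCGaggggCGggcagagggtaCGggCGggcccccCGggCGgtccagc
Serpine2 (Entrez 20720), chr1:79858666-79858815, minus strand: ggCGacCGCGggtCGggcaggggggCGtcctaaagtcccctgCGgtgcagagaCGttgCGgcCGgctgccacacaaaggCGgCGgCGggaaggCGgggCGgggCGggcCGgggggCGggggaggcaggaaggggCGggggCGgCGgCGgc
Fosl2 (Entrez 14284), chr5:32136322-32136471, plus strand: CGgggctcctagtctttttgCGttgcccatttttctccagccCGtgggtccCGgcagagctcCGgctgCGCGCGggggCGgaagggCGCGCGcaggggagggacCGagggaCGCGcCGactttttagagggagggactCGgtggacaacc
Cyp19a1 (Entrez 13075), start 1 of 3, chr9:54268165-54268314, minus strand: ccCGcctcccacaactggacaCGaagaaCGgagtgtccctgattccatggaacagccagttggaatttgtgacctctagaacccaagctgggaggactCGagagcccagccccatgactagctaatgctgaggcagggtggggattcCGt
Cyp19a1 (Entrez 13075), start 2 of 3, chr9:54228915-54229064, minus strand: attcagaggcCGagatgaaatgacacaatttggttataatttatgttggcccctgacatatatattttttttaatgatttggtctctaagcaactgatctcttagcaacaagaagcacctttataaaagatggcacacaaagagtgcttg
Cyp19a1 (Entrez 13075), start 3 of 3, chr9:54193744-54193893, minus strand: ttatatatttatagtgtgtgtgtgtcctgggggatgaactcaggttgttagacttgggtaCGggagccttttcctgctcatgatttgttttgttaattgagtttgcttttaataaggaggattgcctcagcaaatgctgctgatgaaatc
Col3a1 (Entrez 12825), chr1:45311388-45311537, plus strand: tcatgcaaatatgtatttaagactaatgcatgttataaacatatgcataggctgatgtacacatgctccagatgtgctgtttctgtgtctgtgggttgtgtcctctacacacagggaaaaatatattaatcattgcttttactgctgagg
Atoh1 (Entrez 11921), chr6:64728975-64729124, plus strand: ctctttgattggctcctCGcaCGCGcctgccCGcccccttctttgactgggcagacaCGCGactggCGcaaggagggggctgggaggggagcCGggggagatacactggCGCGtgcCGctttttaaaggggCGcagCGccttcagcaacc

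Total counts were 14150715, 26343971 and 12013849 in the RNA libraries and 17137463 and 17968033 in the H3K4me3 libraries. Of 24809 gene IDs in RNA and 24541 in H3K4me3, 24525 were in both, and 20618 of these are protein-coding in the gene table. Levels are given as CPM, the counts of a gene relative to the total of its library, scaled by TMM within each assay. RNA CPM is not corrected for transcript length, which was not at hand, so RNA ranks of genes also reflect their lengths. RNA was called detected at 1 CPM or more in all 3 libraries, which was 12.1 to 26.3 counts, and a gene under 0.1 CPM in all 3 was called without RNA. The H3K4me3 window that was counted per gene is not given in the sources used here, so a value belongs to a gene as a whole, and no promoter is meant by it. Its background was read from 1458 olfactory and vomeronasal receptor genes, which serve in the nose. Their 99th percentile, 3.54 and 4.33 CPM (60.4 and 78 counts), was the limit above which, in both libraries, a gene was called marked. Within each assay the libraries ranked genes alike, with Spearman correlations of 0.983 to 0.985 between RNA libraries and 0.978 between H3K4me3 libraries over all genes. The count differences between replicates exceeded sampling noise in every pair (chi-square per degree of freedom 4.4995 to 32.5 in RNA and 3.99 in H3K4me3), so each library was counted once.

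The label of the cells was checked against 14 granulosa markers, all of which were detected in RNA, with a median RNA rank at percentile 99.5 of protein-coding genes and a summed RNA level of 44684, 48117 and 46208 CPM. RNA of markers of other cell types was present too. Summed RNA of 12 endothelial markers was 726, 239 and 295 CPM, of 14 immune markers 322, 191 and 253, of 10 smooth muscle and pericyte markers 563, 259 and 313, and of 13 theca markers 7032, 3962 and 4374 CPM. RNA replicate 1 was the highest of the 3 libraries for each of these 4 lists and the lowest for granulosa markers. Of defining markers, Cdh5 of endothelium was at 169, 63.8 and 68.9 CPM and Csf1r of macrophages at 38.8, 18.5 and 25.2 CPM. Insl3 of theca was under the limit of 1 CPM in all 3 libraries, at 0.785, 0.494 and 0.0823 CPM. The theca sum includes Cyp11a1, at 4092, 2298 and 2701 CPM. That gene is also in the steroid synthesis list, so the sum does not measure theca cells alone. In such bulk samples fewer cells of a type and less RNA per cell cannot be told apart.

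Across genes, RNA and H3K4me3 levels ran together, and less closely within active genes than over active and silent genes together. Over all 24525 genes the Spearman correlation of the mean levels was 0.776, and it was 0.764 to 0.784 over the 6 pairs of an RNA and an H3K4me3 library. Among the 11925 genes that were both detected and marked it was 0.496, with 0.454 to 0.519 over the pairs. Genes of a library share its depth and composition and are not independent, so these values describe the libraries and carry no test. The lower of these values went with RNA replicate 1 in both sets of genes.

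**Figure D1:**
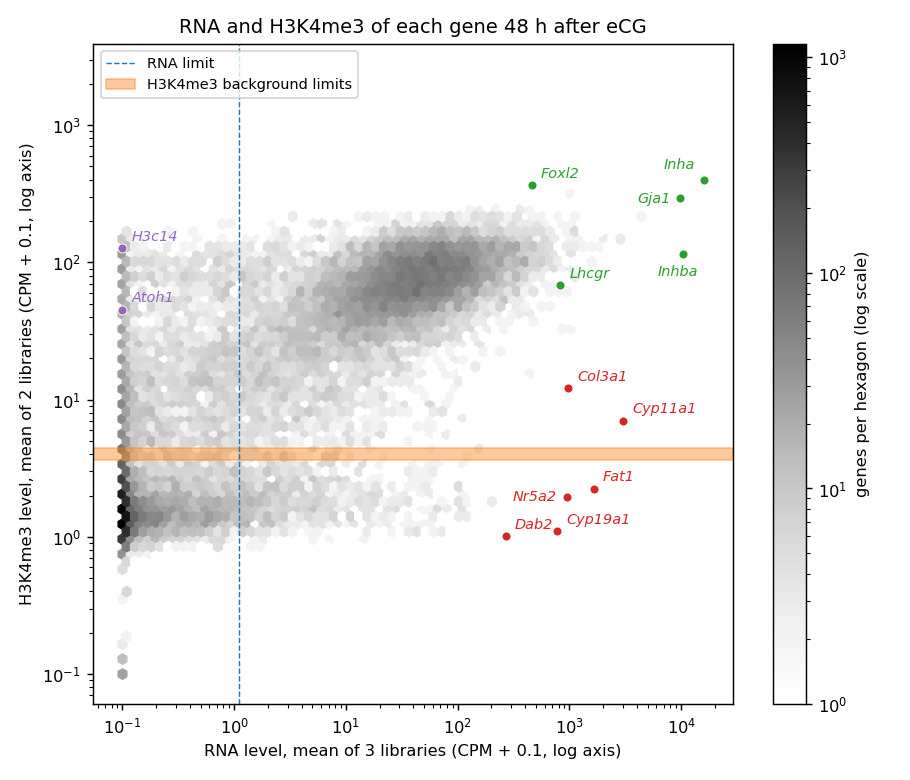
RNA level (horizontal axis) against H3K4me3 level (vertical axis) of 24525 genes, both as mean CPM plus 0.1 on log axes, shaded by the number of genes per hexagon. The dashed line is the RNA limit of 1 CPM and the band spans the H3K4me3 background limits of 3.54 and 4.33 CPM; green, red and purple points are named genes high in both, high in RNA with little H3K4me3, and without RNA but marked.

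Detected genes were divided into 10 equal groups by RNA level. Median H3K4me3 was 15.4 CPM in the lowest RNA decile, 66.1 CPM in the fifth and 102.8 CPM in the highest, and it was higher in each decile than in the one below it in both libraries. The medians lay closest together in the middle, with 66.1, 71.5, 75.9, 82.6 and 87.1 CPM in the fifth to the ninth decile. The share of marked genes was 71.8% in the lowest decile and 98.0% in the highest. Read the other way, among marked genes the median RNA level was 0.433 CPM in the lowest H3K4me3 decile, 17.8 CPM in the fourth and 71.1 CPM in the highest. RNA detection was 33.5% in the lowest H3K4me3 decile, 88.3% in the fourth, and between 91.0% and 94.3% in each of the 6 deciles above it. The upper part of the H3K4me3 range thus held few genes without detected RNA, and within any decile RNA spread widely, with quartiles of 29.6 and 174.9 CPM in the highest.

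**Figure D2:**
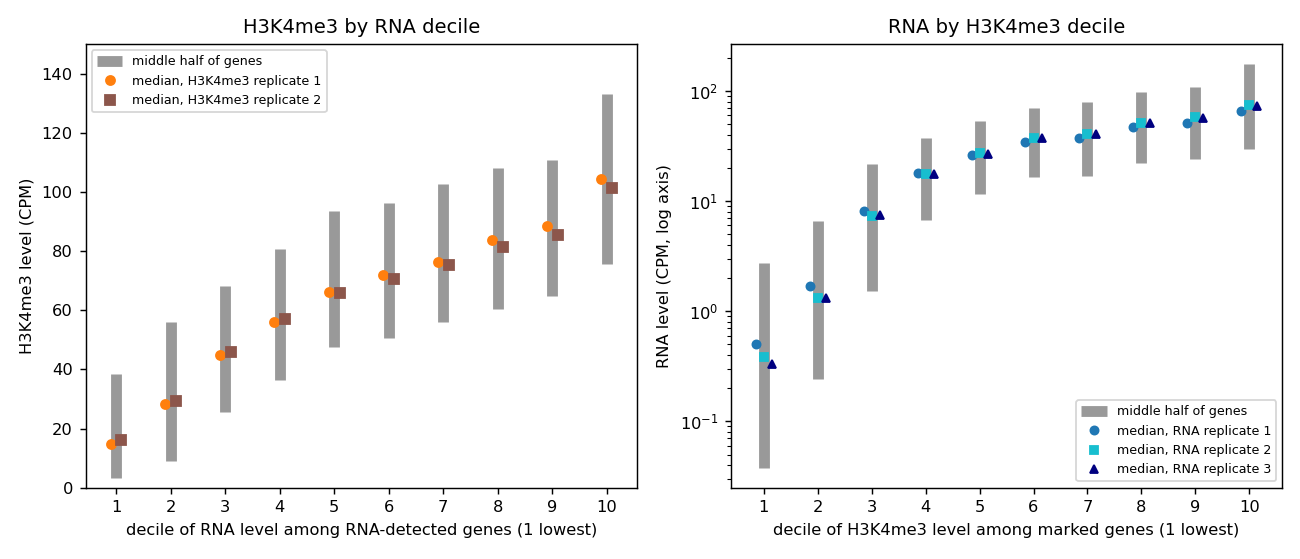
Left, H3K4me3 level (CPM) by decile of RNA level among RNA-detected genes; right, RNA level (CPM, log axis) by decile of H3K4me3 level among marked genes. Points are medians of single libraries and grey bars span the quartiles of the mean level; median H3K4me3 went from 15.4 to 102.8 CPM over the RNA deciles.

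Most genes fell into 4 combinations of RNA and H3K4me3. Of all 24525 genes, 12917 were detected in RNA (52.7%) and 14837 were marked (60.5%). Both held for 11925 genes (48.6%), with a median H3K4me3 of 69.1 CPM, and 6399 genes (26.1%) had neither RNA nor mark, with a median of 1.36 CPM. RNA without the mark was found at 902 genes (3.68%), with a median H3K4me3 of 1.77 CPM. Both classes without the mark were defined by the H3K4me3 limit, so their medians under it were fixed in advance. The mark without RNA was found at 1040 genes (4.24%), at a median of 14.5 CPM. The other genes had low RNA between the RNA limits or passed the H3K4me3 limit in only 1 library. Among protein-coding genes 61.0% were detected, 65.5% were marked, 56.4% were both, 4.18% had RNA without the mark and 2.46% had the mark without RNA, and 92.5% of the detected ones were marked. With a limit set instead at the 95th percentile of genes with 0 RNA counts (18.1 and 20.2 CPM), genes with RNA but no mark numbered 1961 and marked genes without RNA 422. The class with RNA and no mark numbered 1203 at an RNA limit of 0.5 CPM and 398 at 5 CPM, so its size, and which of these 2 classes is larger, depend on the limits. It numbered 81 without genes that share their H3K4me3 counts with another ID. That filter removes mostly genes with low H3K4me3, as 8835 of the 10103 sharing genes lay under the limit, so the fall says little about the class.

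The classes differed in the DNA at the gene start. The CpG ratio is the number of CGs over the number expected from the C and G content, here over 300 bases, 250 before and 50 after the outermost start that the table lists, for the 16523 protein-coding genes with an entry. Of all 18244 genes with an entry, 83.6% had this start within 250 bp of the end of the gene span, so for the others an outer start may be missing. Its median was 0.786 in detected and marked genes, 0.592 in marked genes without RNA, 0.242 in detected genes without the mark, and 0.150 in genes with neither. A ratio of 0.6 or more was met by 77.4%, 49.1%, 11.9% and 3.45% of them. Of the 6399 genes with neither, 1086 were olfactory and 334 vomeronasal receptor genes, whose H3K4me3 set the limit. Their lack of the mark was thus largely fixed in advance. The median CpG ratio of these 2 families was 0.106 and 0.118, and the class without them was not examined. Across genes the ratio had a Spearman correlation of 0.734 with H3K4me3 and 0.639 with RNA, and among the 9342 detected and marked genes of 0.395 with H3K4me3 and 0.211 with RNA. From the lowest to the highest H3K4me3 decile of detected genes the median ratio went from 0.287 to 0.870, and from the lowest to the highest RNA decile from 0.515 to 0.827.

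Many detected genes without the mark had starts far apart. Starts more than 1000 bp apart were listed for 184 of the 658 such genes with an entry (28.0%), against 9.79% of detected and marked genes. Where the outermost start had a ratio of 0.6 or more and the others did not, 386 of 402 detected genes were marked (96.0%), with a median of 63.6 CPM. Where only another start reached 0.6, 145 of 219 were marked (66.2%), with a median of 21.3 CPM, although the median RNA levels were alike at 35.1 and 36.5 CPM. Which start was counted for a gene was not tested. Of pairs of IDs with identical H3K4me3 counts of at least 100 in each library and known starts, 162 of 282 had starts within 5000 bp, at a median distance of 50 bp and in 135 cases on opposite strands, so neighbouring genes with facing starts can carry the same value.

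A set of 4 short motifs was counted on both strands of the same 300 bases, and none of them is contained in another. The TATA element TATAAA occurred at 6.08% of detected and marked genes, 16.3% of detected genes without the mark, 13.2% of marked genes without RNA and 30.4% of genes with neither, against 13.2% of all protein-coding genes. AAGGTCA, the core of the site bound by the orphan receptors Nr5a1 and Nr5a2, was at 2.67%, 7.90%, 3.18% and 5.61% of these 4 classes, against 3.90% overall. The cyclic AMP response element TGACGTCA, which reads the same on both strands, was at 3.40%, 0.760%, 1.96% and 0.906%, against 2.44% overall. The CCAAT box differed little, at 39.0%, 38.4%, 43.0% and 42.4%. A match says only that the letters occur, and the classes also differ in GC content, with medians of 61.7%, 51.3%, 57.3% and 43.3%. The class with neither includes most of the nose receptor genes that set the H3K4me3 limit.

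Genes on the X chromosome carried less H3K4me3 than autosomal genes at alike RNA. For 414 detected and marked protein-coding genes of the X the median H3K4me3 was 39.0 and 39.5 CPM in the 2 libraries, and for 11205 autosomal genes it was 70.1 and 69.7 CPM, while median RNA was 32.0 and 35.8 CPM. The X was lower at each level of RNA: from the lowest to the highest quartile group its median H3K4me3 was 27.8, 38.0, 44.0 and 57.2 CPM, and that of autosomes was 37.7, 65.3, 78.4 and 94.6 CPM. Over all marked genes the X had a median of 37.5 CPM and the 19 autosomes ranged from 58.8 to 70.2 CPM, so the X lay outside their range. Over detected genes, a different set, its median RNA of 29.2 CPM lay within the autosomal range of 27.1 to 36.1 CPM. The CpG ratio was also lower on the X, at a median of 0.674 against 0.791, and its part in the difference was not tested.

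**Figure D3:**
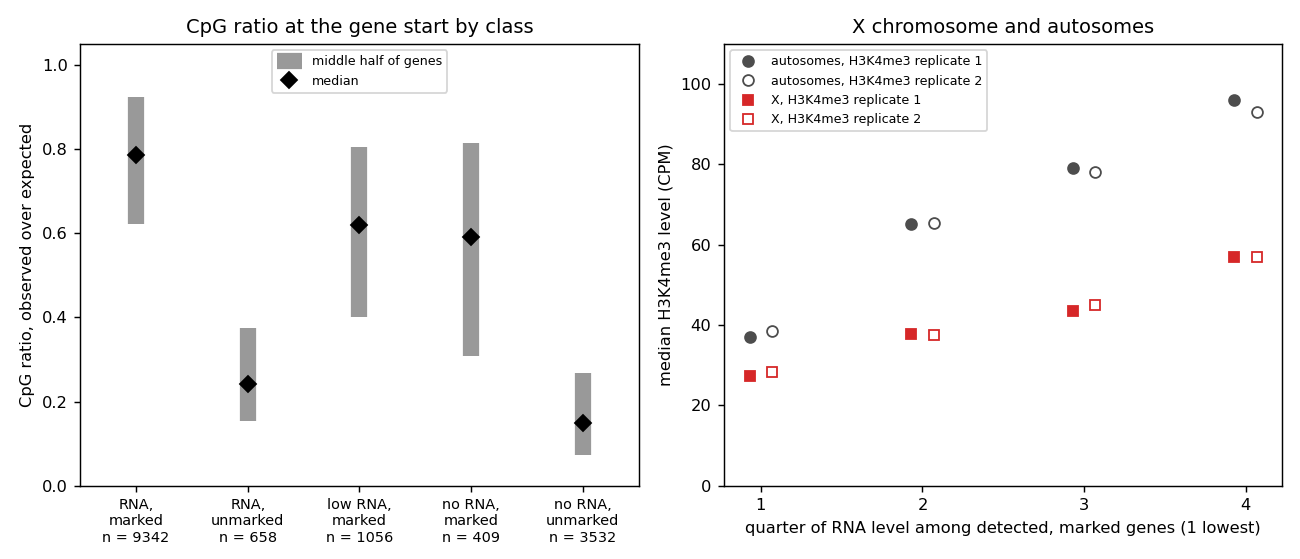
Left, CpG ratio (observed over expected) at the gene start by class of RNA and H3K4me3 for protein-coding genes, with medians as diamonds and quartiles as grey bars. Right, median H3K4me3 level (CPM) of X-linked and autosomal genes, detected and marked, by quartile group of RNA level, in each H3K4me3 library; the X lies below the autosomes in all 4 groups.

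The genes of the gonadotropin response ranked near the top in RNA and in the upper part of the range in H3K4me3. Of 27 members, 25 were detected and 24 marked, against 61.0% and 65.5% of all protein-coding genes. The median RNA rank was at percentile 96.4 and the median H3K4me3 rank at 83.7. The same shares of all protein-coding genes are the ones to set beside the counts of each list below, and 56.4% were both. Inha (Entrez 16322), the alpha subunit of inhibin, which restrains FSH release by the pituitary, had RNA levels of 16344, 15885 and 15378 CPM and H3K4me3 levels of 391 and 401 CPM. Its mean rank rounded to percentile 100 in both assays. Its neighbour Obsl1 (chr1:75485825-75506486, with Inha at chr1:75507077-75510366) also stood among the 12 highest genes of H3K4me3, at 380.2 and 393 CPM with 1498, 1508 and 1487 CPM of RNA, and how far the windows of the pair overlap was not tested.

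The beta subunits were nearly as abundant in RNA but differed in H3K4me3. Inhbb had 9878, 11264 and 10353 CPM of RNA and 199 and 175 CPM of H3K4me3, and Inhba had 9433, 10475 and 11086 CPM and 107 and 121 CPM. Inhba carried less of the mark than Inhbb in each library, and both were far above background. Fst, follistatin, which binds activin, had 1731, 2050.1 and 2059 CPM of RNA and 281 and 269 CPM of H3K4me3. Prkar2b, the regulatory subunit of protein kinase A that FSH induces in granulosa cells, had 2973, 3816 and 3699.8 CPM and 209 and 209 CPM.

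Receptors of the axis were marked at levels that differed widely, with Igf1r, Esr2 and Prlr in the highest H3K4me3 decile of marked genes and Fshr and Lhcgr below it. The FSH receptor gene Fshr had 225, 277 and 245 CPM of RNA and 104 and 111 CPM of H3K4me3. Lhcgr, the receptor for luteinizing hormone that granulosa cells acquire as the follicle matures, had 1085, 688 and 721 CPM of RNA and 60.2 and 75.5 CPM of H3K4me3, which was 0.660 of the median of its RNA decile. Lhcgr RNA was highest in replicate 1, the library with the most theca and endothelial RNA, and the part of theca cells, which also express this receptor, was not tested. The estrogen receptor Esr2 had 153, 193 and 181 CPM and 178 and 201 CPM, Igf1r had 462, 372 and 361 CPM and 259.7 and 246 CPM, and the prolactin receptor Prlr had 969.8, 569 and 637 CPM and 131 and 142 CPM. Pde4d, a phosphodiesterase that degrades cyclic AMP, was the member with the least H3K4me3, at 0.995 and 1.39 CPM with 9.13, 7.11 and 4.77 CPM of RNA, and it was the only detected member of the list without the mark in either library.

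**Figure D4:**
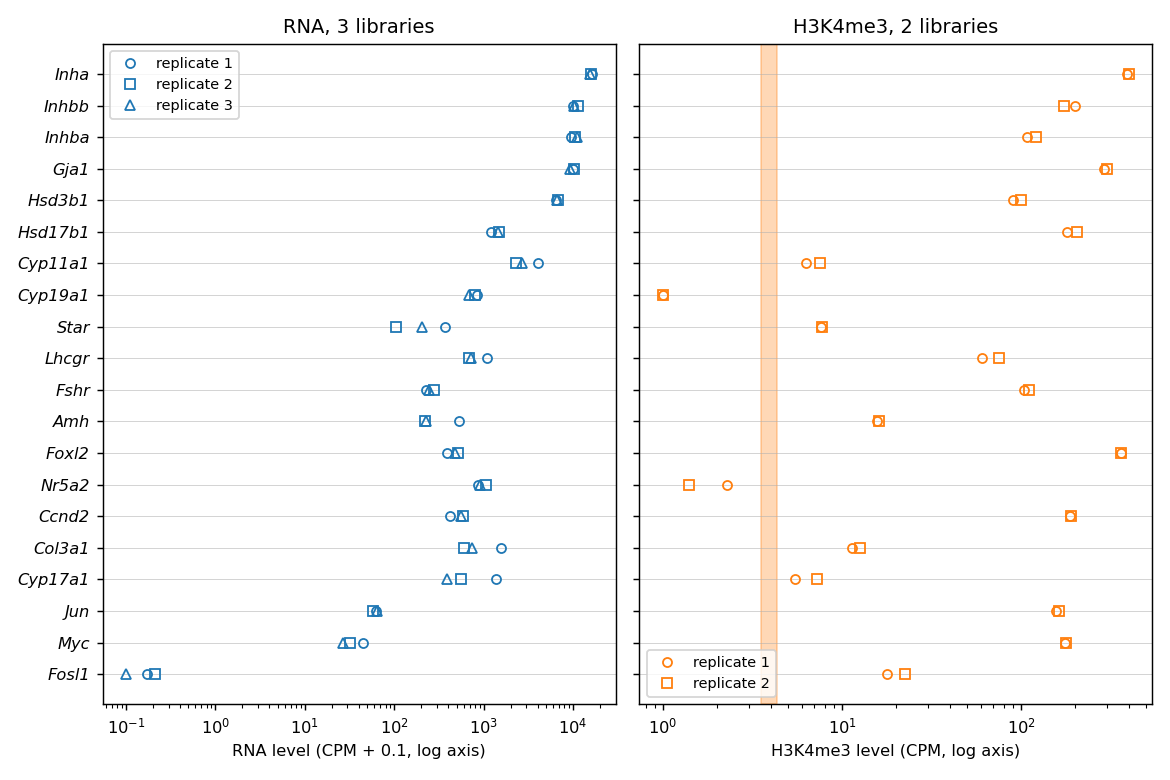
RNA level (left, CPM plus 0.1) and H3K4me3 level (right, CPM) of 20 named genes on log axes, with each library as a separate symbol and the H3K4me3 background limits as a band. Cyp19a1 and Nr5a2 lie below the band in both H3K4me3 libraries, while Inha and Foxl2 lie near 400 and 363 CPM.

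Steroid synthesis combined very high RNA ranks with ordinary H3K4me3 ranks. Of 21 members 20 were detected and 17 marked, the median RNA rank was at percentile 97.4 and the median H3K4me3 rank at 67.4, and 3 detected members had no mark, where 4.18% of all protein-coding genes are of that class. Cyp19a1, aromatase, which makes estradiol, had RNA levels of 846, 810.1 and 678 CPM and H3K4me3 levels of 0.995 and 0.999 CPM. Its H3K4me3 was below the median of the nose receptor genes (1.3997 CPM) in both libraries, and its rank gap of 92.5 percentile points was the largest named. RefSeq lists 3 starts spread over 74421 bp for this gene, with CpG ratios of 0.268, 0.546 and 0.208, and ovarian transcription is known to begin close to the coding exons and not at the outermost start. The value of 0.995 and 0.999 CPM may belong to any of them and cannot be read as absence of the mark at the start in use. Of the motifs searched, TATAAA lay 29 bases before the middle start on the gene's strand. It also lay on the other strand 143 and 157 bases before the start farthest downstream.

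Nr5a2, the orphan receptor that drives several of these genes, was the same kind of case, with 866, 1051 and 919 CPM of RNA, 2.28 and 1.39 CPM of H3K4me3 and starts 6818 bp apart. Cyp11a1, the side-chain cleavage enzyme that makes pregnenolone, had 4092, 2298 and 2701 CPM of RNA and 6.32 and 7.55 CPM of H3K4me3, above the limit but at 0.0675 of the median of its RNA decile, with starts 16928 bp apart. Star, which carries cholesterol into mitochondria, had 371, 104 and 203 CPM and 7.67 and 7.77 CPM, and Cyp17a1, the theca enzyme that makes androgens, had 1378, 558 and 385 CPM and 5.44 and 7.21 CPM. Cyp11a1, Star and Cyp17a1 were each highest in RNA replicate 1. All of them are in the theca marker list, so the same order in that list's summed RNA is not a separate observation. What theca RNA adds to their gap was not tested.

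Other enzymes of the pathway had the mark at usual levels. Hsd3b1, 3β-hydroxysteroid dehydrogenase, had 6498, 6752 and 6603 CPM of RNA and 90.0 and 99.7 CPM of H3K4me3, 0.923 of the median of its decile, with the 2 CGs in 300 bases that its printed stretch shows in part. Hsd17b1, which reduces estrone to estradiol, had 1192, 1496 and 1457 CPM and 181 and 204 CPM, the highest H3K4me3 of the list. Scarb1, the receptor for high-density lipoprotein, had 3742, 1793 and 2189.9 CPM and 123 and 117 CPM. The electron carriers Fdx1 and Fdxr had 131 and 139.9 CPM and 107 and 117 CPM of H3K4me3, and the regulator Nr5a1 had 286, 372 and 364 CPM of RNA and 179.7 and 175 CPM of H3K4me3, so the related factors Nr5a1 and Nr5a2 lay at opposite ends of the list in H3K4me3 while RNA of both was detected in all libraries.

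Cholesterol synthesis and uptake lay nearer to the genome's usual relation. All 24 members were detected and 23 were marked (95.8%, against 65.5% of protein-coding genes). Median ranks were at percentiles 96.7 in RNA and 74.9 in H3K4me3. Scap, the escort of the sterol sensor, had 1055, 1018 and 993 CPM of RNA, the highest of the list, and 109 and 111 CPM of H3K4me3. Hmgcs1 was the highest of the list in H3K4me3, at 113 and 113 CPM, and Pmvk, phosphomevalonate kinase, the lowest, at 1.29 and 1.498 CPM with 22.6, 21.3 and 22.9 CPM of RNA and starts more than 1000 bp apart.

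Regulators of granulosa identity stood high in both assays and carried more H3K4me3 than most genes of alike RNA. All 25 members were detected and 23 marked, with median ranks at percentiles 94.9 in RNA and 91.9 in H3K4me3, and the median member carried 1.24 times the median H3K4me3 of its RNA decile, against 0.991 over all detected protein-coding genes. Foxl2, the transcription factor that maintains granulosa fate, had 393, 519 and 475 CPM of RNA and 363 and 363 CPM of H3K4me3, among the 12 highest genes of H3K4me3. Its antisense neighbour Foxl2os had 454, 359 and 371 CPM and 353 and 349.6 CPM, and their starts lie within 1000 bp, so the values are not independent. Bmpr2, a receptor for bone morphogenetic proteins and for GDF9 of the oocyte, had 1313, 1393 and 1466 CPM and 321 and 326 CPM. The zinc finger factor Gata6, with 169, 246 and 229 CPM of RNA, 330.2 and 327 CPM of H3K4me3 and an overlapping antisense gene Gata6os at 332 and 329 CPM, and Gata4, with 382, 488 and 443 CPM and 232 and 239 CPM, were also high in the mark.

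Members of this list with little H3K4me3 were fewer. The lowest, and the only member without the mark in both libraries, was Nr5a2, described above, at a mean of 1.83 CPM. Amh, anti-Müllerian hormone of growing follicles, had 529.6, 219 and 224 CPM of RNA and 15.7 and 16.1 CPM of H3K4me3, 0.155 of the median of its decile. Runx1 had 23.3, 23.7 and 25.3 CPM of RNA and 3.57 and 2.996 CPM of H3K4me3, above the limit in 1 library only, with starts more than 1000 bp apart. Foxo1, a factor of growing follicles outside the list, was among the 12 highest in H3K4me3, at 334 and 318 CPM with 886, 1228 and 1189 CPM of RNA. Hjurp, a centromere histone chaperone, had the highest H3K4me3 of all protein-coding genes, 446 and 436 CPM, at an RNA level of 32.9, 40.6 and 37.3 CPM near the middle of detected genes. Mir101c was listed with 962 and 3749.7 CPM of H3K4me3 and no RNA, and the large difference between the libraries leaves its level undetermined.

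All 15 genes of the gap junction and of the dialogue with the oocyte were detected and marked. Gja1, connexin 43, which couples granulosa cells to each other, had 10025, 10198 and 9215 CPM of RNA and 289.7 and 302 CPM of H3K4me3, both in the top percentile. Npr2, the receptor of the peptide that holds the oocyte in meiotic arrest, had 560.2, 578 and 545 CPM and 86.8 and 84.7 CPM, and its ligand Nppc had 102.1, 118 and 99.4 CPM and 115 and 125 CPM. Kitl, the ligand that granulosa cells present to the oocyte, had 180.4, 189 and 178 CPM and 128 and 126 CPM. The lowest H3K4me3 of the list was at Gja4, the connexin of the oocyte side and of endothelium, with 13.1 and 12.8 CPM and 7.56, 3.92 and 3.13 CPM of RNA.

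Genes of proliferation and metabolism followed the genome-wide relation. All 31 cell cycle genes were detected and marked, with median ranks at percentiles 88.9 and 78.0. All 22 genes of oxidative phosphorylation were detected and marked, with medians at 91.6 and 81.7. Of all protein-coding genes 56.4% were detected and marked. Ccnd2, the cyclin that FSH induces, had 418, 590.1 and 552 CPM of RNA and 188 and 189 CPM of H3K4me3, while Ccnd1 had 19.0, 10.4 and 13.5 CPM and 19.7 and 21.7 CPM. Cdk6 was the highest of the list in the mark, at 223 and 219 CPM, and Cdkn1a, the inhibitor p21, the lowest, at 5.33 and 5.33 CPM with 11.8, 15.8 and 16.2 CPM of RNA. In oxidative phosphorylation the H3K4me3 range was narrow, from Ndufa1 at 57.6 and 59.2 CPM to Ndufs1 at 139 and 141 CPM, although RNA went from 41.9, 37.8 and 34.5 CPM at Ndufa1 to 1300.1, 1502 and 1432 CPM at Atp5b. Of 21 glycolysis genes 19 were detected (90.5%) and 20 marked (95.2%), against 61.0% and 65.5% of protein-coding genes. Gapdh had 920.4, 1349 and 1213 CPM of RNA and 169 and 159 CPM of H3K4me3, the highest of that list. Hk1, the hexokinase of most tissues, had 64.8, 68.2 and 67.99 CPM of RNA but 1.93 and 1.22 CPM of H3K4me3, with starts more than 1000 bp apart, whereas Hk2 had 46.5, 60.2 and 48.1 CPM and 99.1 and 108 CPM.

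Ribosomal protein genes of the cytosol and of mitochondria differed more in RNA rank than in H3K4me3 rank. The 87 cytosolic ribosomal protein genes had a median RNA rank at percentile 97.6 and the 78 mitochondrial ones at 68.1, while their median H3K4me3 was 98.2 and 77.4 CPM, at ranks of 85.7 and 76.0. Among 387 Zfp zinc finger genes the order was turned, with median ranks at percentiles 54.2 in RNA and 66.1 in H3K4me3. Of these Zfp genes 360 were marked (93.0%, against 65.5% of protein-coding genes).

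Several genes of the ovulatory response were marked while their RNA stood near the limit. Of 21 ovulatory and luteal genes 19 were detected (90.5%) and 18 marked (85.7%), against 61.0% and 65.5% of protein-coding genes. With the limit from genes with 0 RNA counts 13 were marked. Ptgs2, the prostaglandin synthase, had 1.07, 2.24 and 1.65 CPM of RNA and 15.04 and 15.3 CPM of H3K4me3, and Has2, the hyaluronan synthase of the cumulus, had 1.21, 0.913 and 1.07 CPM and 54.3 and 63.6 CPM. The progesterone receptor Pgr had 2.14, 2.21 and 1.81 CPM and 43.2 and 50.3 CPM, which was 3.04 times the median H3K4me3 of its RNA decile. Among the EGF-like ligands Areg had 2.78, 2.62 and 1.32 CPM and 15.5 and 15.4 CPM, Ereg 2.00, 1.75 and 1.48 CPM and 17.9 and 19.1 CPM, and Btc 4.35, 5.29 and 3.54 CPM and 25.6 and 27.6 CPM. Ptgs2, Areg and Ereg lay in the lowest RNA decile, where the median H3K4me3 was 15.4 CPM and 71.8% of genes were marked. Their H3K4me3 was thus near the usual level for their RNA. Tnfaip6 and Ptx3, which cross-link the cumulus matrix, had 16.8 and 21.2 CPM and 23.6 and 27.8 CPM of H3K4me3 with RNA of at most 3.07 CPM. By contrast Vcan, a matrix proteoglycan, had 1399.7, 1325 and 1194 CPM of RNA and 172 and 186 CPM of H3K4me3, and Akr1c18, the luteal enzyme that inactivates progesterone, had the least mark, 1.64 and 2.05 CPM, at 3.99, 9.43 and 9.71 CPM of RNA.

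Immediate early genes had the most H3K4me3 for their RNA among the pathway lists. All 20 were marked, 16 were detected, and the median RNA of 13.9 CPM (percentile 56.2) stood beside a median H3K4me3 of 85.0 CPM (percentile 79.8). The median detected member carried 2.16 times the median H3K4me3 of its RNA decile. Fosl2 had 540.5, 675 and 694 CPM of RNA and 342 and 339 CPM of H3K4me3, the highest of the list in both, with 17 CGs in its printed stretch. Jun had 62.5, 57.6 and 64.9 CPM and 157 and 162 CPM, Myc had 44.4, 31.8 and 26.8 CPM and 176 and 178 CPM, and Ier2 had 26.5, 23.0 and 28.5 CPM and 173 and 176 CPM. Nr4a3 had 0.642, 1.14 and 0.658 CPM of RNA and 118 and 124 CPM of H3K4me3, and Fosl1, the lowest in both, had 0.0713, 0.114 and 0 CPM and 17.9 and 22.4 CPM.

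Extracellular matrix genes were the reverse, with high RNA and little H3K4me3. Of 26 members 25 were detected and 25 marked, with a median RNA rank at percentile 97.2 and a median H3K4me3 rank at 52.0, and the median detected member carried 0.336 of the H3K4me3 of its RNA decile. Col3a1, a fibrillar collagen, had 1569, 604 and 732 CPM of RNA and 11.4 and 12.6 CPM of H3K4me3, and no CG lies in the 300 bases around its start. Col4a1, a basement membrane collagen, had 1933, 672 and 751 CPM and 33.3 and 35.7 CPM, and Sparc, a collagen-binding protein, had 2197, 1027 and 1106 CPM and 51.2 and 57.2 CPM. Each of the 3 was highest in RNA replicate 1, and so was the summed RNA of the list, at 17114, 8771 and 9204 CPM, whereas the summed H3K4me3 was 1109 and 1174 CPM. Endothelial, smooth muscle and theca RNA moved in the same direction across these libraries, and its part in the matrix RNA was not tested. At the upper end of the list in H3K4me3 were Vcan, above, and Lama1, a laminin chain, with 559.5, 497 and 457 CPM of RNA and 117 and 124 CPM of H3K4me3. With the limit from genes with 0 RNA counts, 16 of the 26 were marked.

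Markers of other cells had RNA with H3K4me3 at or near background. All 12 endothelial markers were detected but 4 were marked and 7 had no mark, with a median H3K4me3 of 3.01 CPM, and the median member carried 0.0502 of the H3K4me3 of its RNA decile. Cdh5, at the RNA levels given above, had 4.33 and 4.22 CPM of H3K4me3, while Kdr, a receptor for vascular endothelial growth factor, had 102.5, 24.5 and 35.3 CPM of RNA and 29.7 and 32.0 CPM of H3K4me3. Of 14 immune markers 13 were detected and 2 marked, namely Cd14 and Cd68, and 5 were marked without H3K4me3 replicate 2 or with the limit at the 95th percentile of the receptor genes. With the limit from genes with 0 RNA counts 2 endothelial, 1 immune and 3 oocyte markers were marked. Lyz2, lysozyme of macrophages, had 131, 84.2 and 115 CPM of RNA and 3.34 and 2.996 CPM of H3K4me3. Of 18 oocyte markers 11 were detected and 5 marked, and Gdf9 had 15.05, 7.34 and 5.93 CPM of RNA and 72.0 and 70.2 CPM of H3K4me3, whereas Zp3, of the zona pellucida, had 13.0, 5.86 and 6.34 CPM and 1.405 and 0.832 CPM.

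Theca, smooth muscle and surface epithelium markers lay between. Of 13 theca markers 12 were detected and 11 marked, of 10 smooth muscle markers 10 and 5, and of 10 surface epithelium markers 10 and 8, with median H3K4me3 of 7.72, 3.87 and 10.6 CPM. With the limit from genes with 0 RNA counts the marked members of these 3 lists numbered 6, 0 and 2. Granulosa markers differed from all of these, with a median H3K4me3 of 111 CPM and 12 of 14 marked, the others being Cyp19a1 and Nr5a2. The 4 globin genes of red cells were listed at 0 in RNA in each library although Alas2, an enzyme of heme synthesis in red cells, had 471, 146 and 614 CPM. Globin genes come in near-identical copies between which reads may be divided or dropped, so their RNA is uncertain.

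**Figure D5:**
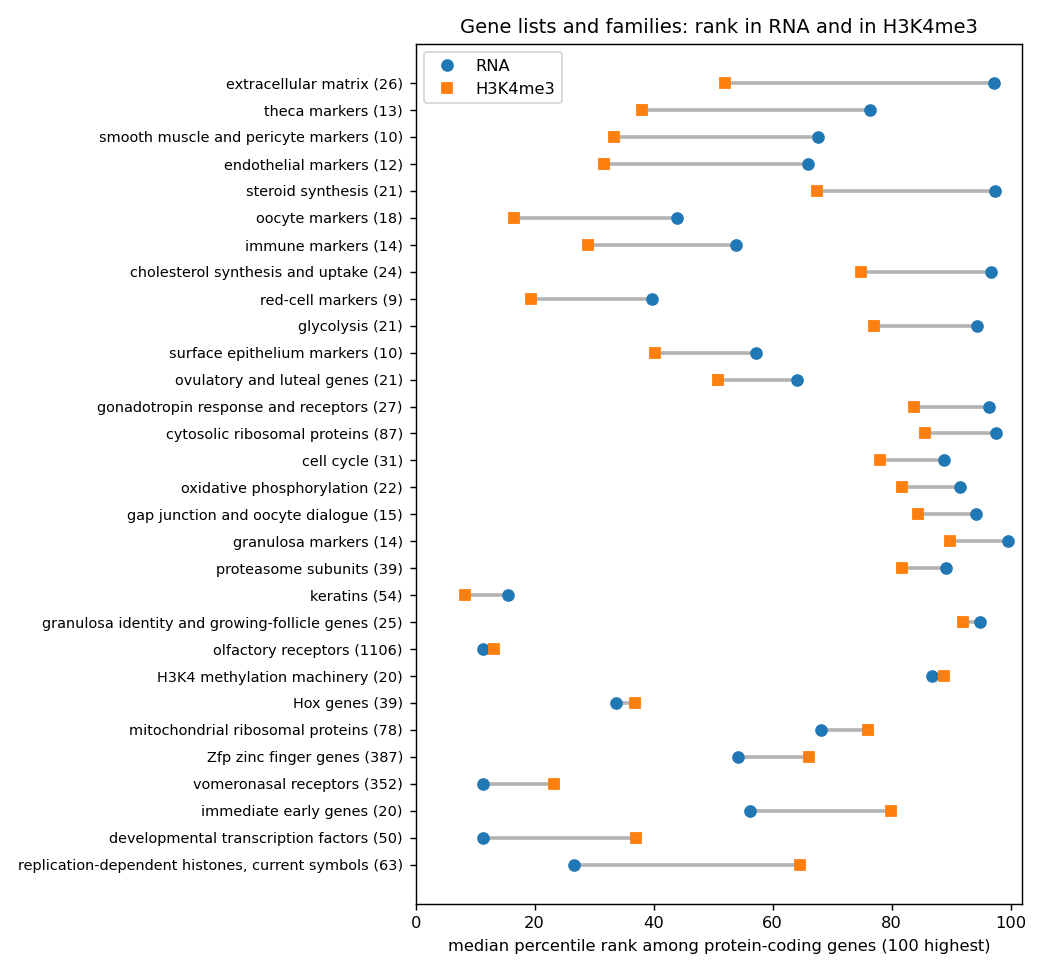
Median percentile rank among 20618 protein-coding genes of each gene list or family in RNA (blue circles) and in H3K4me3 (orange squares), with the number of members in parentheses and lists sorted by the difference. Extracellular matrix genes lie at 97.2 in RNA and 52.0 in H3K4me3, and immediate early genes at 56.2 and 79.8.

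The enzymes that write and erase H3K4 methylation were all expressed. All 20 members were detected, with RNA from 33.2 to 248 CPM, and 17 were marked. The methyltransferase Kmt2d had 185, 173 and 204 CPM of RNA and 205 and 186 CPM of H3K4me3, Setd1b had 48.1, 56.3 and 54.3 CPM and 222 and 215 CPM, and the demethylase Kdm5c had 233, 256 and 255 CPM and 126 and 123 CPM. Among subunits shared by the SET1 and MLL complexes, Wdr5 and Rbbp5 were marked, at 87.1 and 97.3 CPM and 87.5 and 86.5 CPM. Ash2l, with 62.1, 79.5 and 78.8 CPM of RNA, and Dpy30, with 31.6, 35.6 and 32.3 CPM, were at background, with 1.11 and 0.777 CPM and 2.52 and 1.72 CPM of H3K4me3. The coactivator Ncoa6 was also at background, with 59.1, 68.7 and 65.1 CPM of RNA and 1.76 and 1.89 CPM.

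Developmental transcription factors of other lineages gave little RNA, and their share of marked genes was near that of all genes. Of 50 factors 2 were detected (4%, against 61.0% of protein-coding genes) and 32 were marked (64.0%, against 65.5%). Of the 50, 17 were marked without RNA, where 2.46% of protein-coding genes are of that class, 13 were marked with low RNA, and 12 had neither RNA nor mark. The median H3K4me3 of all 50 was 6.74 CPM, against 29.8 CPM for protein-coding genes. Atoh1, which specifies hair cells and cerebellar neurons, had 40.4 and 49.9 CPM of H3K4me3 and 0 RNA counts, with 13 CGs in its printed stretch. Neurog2 had 15.04 and 18.4 CPM, also with 0 RNA counts, while Cdx2 had 1.64 and 1.89 CPM and Myod1 1.35 and 1.054 CPM. The call rests on the limit: with the limit from genes with 0 RNA counts, 2 of the 50 were marked. Of 39 Hox genes 16 were detected (41.0%) and 25 marked (64.1%, near the 65.5% of protein-coding genes), with median ranks at percentiles 33.7 in RNA and 36.9 in H3K4me3.

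Replication-dependent histone genes had H3K4me3 at the level of active genes and little counted RNA. By current symbols, a family defined after the data were seen, there were 63 genes. Of these 5 were detected (7.94%) and 61 marked (96.8%), against 61.0% and 65.5% of protein-coding genes. Their medians were 0.135 CPM of RNA and 57.8 CPM of H3K4me3. H3c14 and H3c15 both had 134 and 119 CPM of H3K4me3 and 0 RNA counts, and their H3K4me3 counts were 2295 for each in replicate 1 and 2145 and 2144 in replicate 2. The pair are near-identical, so their RNA is uncertain, and how RNA was selected for the libraries is not stated in the labels.

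Some marked genes without RNA shared sequence or starts with other genes. Of 276 marked protein-coding genes with 0 RNA counts, 45 had at least 50 CPM of H3K4me3. Of these 45, 28 had the same H3K4me3 counts as another ID, and 14 overlapped a gene with a mean RNA of at least 1 CPM. The start of an RNA-detected gene lay within 1000 bp of 9, and 8 were histones. Of all protein-coding genes with a listed start, 9.28% had such a start within 1000 bp. Of all protein-coding genes, 3.53% overlapped a gene of at least 1 CPM and 10 times their own RNA. Both H3K4me3 counts were shared by 10103 of all 24525 joined genes, of which 8835 lay under the limit. Amd1 and Amd2, copies of a polyamine synthesis enzyme, both had 139 and 126 CPM, and Oaz1, the antizyme that degrades ornithine decarboxylase, had 131 and 132 CPM, each listed at 0 in RNA, and they were picked out after their values were seen. Among all protein-coding genes 100 (0.485%) had H3K4me3 more than 50 percentile points above RNA in every pair of libraries. Gm and Rik genes were left out of the named gaps, and so were genes with shared counts unless they were list members. The 12 largest were then H3c14, H3c15, H2ac18, H2ac19, Atp6v0c, Tcte3, Srp54c, Rpl34-ps1, Asb15, Eno1, Akr1b3 and Atrip. Asb15 has the start of Ndufa5, a detected gene of the respiratory chain, within 1000 bp, and Tcte3 overlaps Ermard. Eno1, a glycolytic enolase, was at 0, 0 and 0.0823 CPM of RNA with 133 and 138 CPM of H3K4me3. It shares both H3K4me3 counts with another ID and was kept as a member of the glycolysis list, so its RNA is uncertain.

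In the other direction, 150 of 9485 protein-coding genes with at least 10 CPM in each RNA library (1.58%) had RNA more than 50 percentile points above H3K4me3. By the same rule, which keeps list members, the 12 largest gaps were at Cyp19a1, Eif2ak1, Ash2l, Nr5a2, Mylk, Fat1, Dynll2, Gnas, Alas2, Hif1a, Cyp11a1 and Cyp17a1. Fat1, a giant protocadherin, had 1797, 1554 and 1587 CPM of RNA and 1.405 and 2.89 CPM of H3K4me3, and Hif1a, the hypoxia-inducible factor, had 397, 607 and 597 CPM and 3.86 and 4.27 CPM. Gnas, which encodes the stimulatory G protein that couples the FSH receptor to cyclic AMP, had 744, 827 and 764 CPM of RNA and 3.57 and 3.995 CPM of H3K4me3, with starts 45686 bp apart. Eif2ak1, a kinase that senses heme, had 64.0, 68.1 and 60.4 CPM and 0.410 and 0.610 CPM, below the background of the receptor genes. Mylk, a kinase of smooth muscle, had 89.2, 54.8 and 62.5 CPM and 1.23 and 0.721 CPM, highest in RNA in replicate 1.

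When genes that share counts were left out only if the partner's start lay within 5000 bp, a choice made after seeing the data, 3 of these 12 stayed and 9 others entered. Dab2, an endocytic adaptor, then followed Cyp19a1, with 225, 302 and 280.4 CPM of RNA and 1.17 and 0.666 CPM of H3K4me3. Dnmt1, the maintenance DNA methyltransferase, had 153, 178 and 177 CPM and 1.23 and 0.777 CPM, Sptbn1, a spectrin, 731, 668 and 646 CPM and 1.29 and 1.44 CPM, and Txnrd1, thioredoxin reductase, 123, 156 and 148 CPM and 0.936 and 1.22 CPM. At these 4 genes the outermost listed start had a CpG ratio of 0.188, 0.101, 0.130 and 0.154, and another start, 86959, 7265, 21515 and 26390 bp away at most, had 0.720, 0.910, 0.868 and 0.963. Hnrnpf, an RNA-binding protein, was alike, with 0.384 at the outermost and 0.909 at another start. The other 4 genes that entered were not: Lifr and Ncor1 had 1.07 and 0.951 at the outermost start and 0.188 and 0.182 at the other, Acaca had 1 listed start at 0.0850, and Rgs3 had 0.216 and 0.352. Gaps at genes with such starts describe the deposited counts, and the mark at the other start was not measured apart.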

How the data were processed

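RNA-seq and H3K4me3 ChIP-seq of eCG-primed mouse granulosa cells were read from 2 deposited tables of raw counts per Entrez gene ID, made by the authors; all 5 columns labelled 48 h were used and the 5 columns labelled 0 h were not. The submitters' processing notes name FastQC 0.11.5, Picard, STAR, kallisto and sleuth for RNA, and Trimmomatic, Bowtie2 2.2.9, MACS2 2.2 and ChIPseeker 1.18.0 for ChIP, with build mm10. Which program counted reads, with what strand setting and over which H3K4me3 window, was not given in the sources used here. Without strand, RNA of a gene and its antisense partner cannot be told apart, and reads of near-identical copies may be split or dropped.

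Counts were divided by TMM-scaled totals (edgeR 4.0.16 in R 4.3.3) to CPM, all genes kept. Levels per kilobase were intended, but the gene table held whole-gene spans and no transcript lengths, so CPM was used. Percentile ranks are over protein-coding genes, and list medians and Spearman correlations are descriptions without a test, since 1 condition was examined (Python 3.11.15, pandas 2.3.3, scipy 1.17.1). The calculations were tested on simulated data. Starts and sequences came from RefSeq, GRCm38.p6, with 18244 of 24525 genes matched. Total counts of 12013849 to 26343971 make 1 RNA CPM 12.1 to 26.3 counts. Levels near the limits therefore carry counting error, and counting error is the least error they carry.

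Members and lists (13 gene lists and 8 marker lists, 388 genes, 387 found) were chosen with earlier results of these data known. Named were the 4 highest RNA members and the extremes of H3K4me3 of each gene list, the 12 highest genes of each assay, the 12 largest rank gaps in each direction (in the RNA direction with at least 10 CPM), and 11 granulosa genes, leaving out Gm and Rik genes and, outside lists, genes that share both H3K4me3 counts with another ID. Other genes in the text were added after their values were seen. Alternatives were DESeq2 1.42.0 size factors, other limits, filters and sets of genes, and leaving out each library. Some members that the rule names are not reported here.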

Additional observations from a re-analysis of the deposited data

How the results depend on the processing

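Alternatives were run for the correlations, the deciles, the class sizes, the marked members of lists, the CpG values and the named rank gaps. The correlations and rank gaps kept their sign, and the other values cannot be negative. Genes with RNA and no mark were fewer than marked genes without RNA as reported (902 and 1040). They outnumbered them among protein-coding genes (862 and 508) and at an RNA limit of 0.5 CPM (1203 and 1040). The same held with the H3K4me3 limit from genes with 0 RNA counts. The X chromosome, motif and start values, list ranks and ratios to decile medians were computed in 1 setting only. Of values that answer a comparison, 96 kept their value within the spread between library pairs, or within 1.5 times for counts, and 30 moved; of the other values 232 kept theirs and 35 moved. No paired analysis was possible because no test was made and the RNA and H3K4me3 libraries are different assays of 1 condition. RNA per kilobase was not run for want of transcript lengths.

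The correlation over all genes was 0.555 with genes of at least 10 counts, 0.618 without genes that share counts and 0.804 for protein-coding genes, a set chosen after seeing the data, as were autosomes and the start with the highest CpG ratio. Among detected and marked genes it was 0.526 for protein-coding genes. Genes with RNA and no mark numbered 81 without genes that share counts, 398 at an RNA limit of 5 CPM and 1961 with the H3K4me3 limit from genes with 0 RNA counts. Under that limit marked genes without RNA numbered 422. Genes with neither numbered 316 without genes that share counts. Sharing of low counts is frequent by their small size, as 8835 of the 10103 such genes lay under the limit.

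The correlation of the CpG ratio with H3K4me3 was 0.462 without genes that share counts. The median ratio of detected and marked genes was then 0.785, with the highest start 0.804 and on autosomes 0.791. For detected genes without the mark it was 0.234 without sharing genes and 0.302 with the highest start. For marked genes without RNA it was 0.628 with the highest start. For genes with neither it was 0.180, 0.152 and 0.145 in the order sharing, highest start and autosomes.

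Leaving out each library in turn gave correlations of 0.772 to 0.781 over all genes and 0.488 to 0.513 over detected and marked genes. Median H3K4me3 of the highest RNA decile was 6.20 to 7.65 times that of the lowest, and median RNA of the highest H3K4me3 decile 155 to 196 times that of the lowest. Detected and marked genes numbered 11934 to 12014, RNA without mark 911 to 984, mark without RNA 1077 to 1161, and neither 6436 to 6669. The CpG correlation was 0.730 to 0.736, and the class medians 0.784 to 0.786, 0.238 to 0.247, 0.569 to 0.601 and 0.150 to 0.153.

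Of 147 counts of marked list members 10 moved, 8 of them under the limit from genes with 0 RNA counts, and of 120 rank gaps 25 moved. Depth limits RNA calls near 1 CPM and H3K4me3 calls near 60.4 and 78 counts.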

Other observations

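Biotypes other than protein-coding differed in how RNA and H3K4me3 combined. Of 2134 long noncoding RNA genes 248 were detected and marked (11.6%, against 48.6% of all genes), with a median H3K4me3 of 98.2 CPM. Marked without RNA were 226 (10.6%, against 4.24% of all genes). Of 1184 microRNA genes 237 were marked without RNA (20.02%), and 831 had neither RNA nor mark (70.2%, against 26.1% of all genes). How RNA was selected for the libraries is not stated in the labels, so little counted RNA is uncertain for genes of small RNAs. Overlap of their H3K4me3 windows with those of other genes was not tested. Of 119 small nucleolar RNA genes 57 were marked with low RNA (47.9%, against 7.63% of all genes).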
